A study of Homo sapiens with 12 samples.

Results

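The Notch signalling genes examined here were the ligand gene *JAG1*, the receptor genes *NOTCH1* and *NOTCH2*, the nuclear partners *RBPJ* and *MAML2*, and 5 genes known as targets or modulators of the pathway, *HES1*, *HES4*, *HEY1*, *NRARP* and *DTX1*. They were taken by gene symbol from the count tables of 2 human B-cell lines and make up 10 of the 23533 gene identifiers in either table. The set was assembled around *JAG1* because its RNA was much higher in MEC1 cells with high UGT2B17, so the MEC1 values of all 10 genes are given as a description, with no P-value. All 10 genes were in the MEC1 table and 8 in the JVM2 table, where *HES4* and *DTX1* were not listed.

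MEC1 and JVM2 are established lines of malignant B cells used as models of chronic lymphocytic leukemia, and the study asked what the steroid-conjugating enzyme UGT2B17 changes in them. RNA was sequenced from 3 replicates of each of 4 populations, 12 libraries in all. MEC1-2B17 cells carried the UGT2B17 coding sequence in the plasmid pcDNA6 and were selected with blasticidin, whereas MEC1-CTRL cells carried an shRNA against UGT2B17 and were selected with puromycin. JVM2-2B17 cells carried the same expression plasmid and JVM2-CTRL cells the empty pcDNA6, both under blasticidin. In MEC1, the construct and the antibiotic therefore changed together with UGT2B17 and cannot be told apart from it, while in JVM2 both arms had the same plasmid backbone and antibiotic. All 4 populations were stable, and whether any was a clone is not given in the sources used here. The 3 replicates of each arm came from the same population, so the P-values rest on the spread within populations. In JVM2 too, other differences between the populations therefore cannot be told apart from UGT2B17, and their part was not tested.

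Notch receptors are membrane proteins that are cleaved when a ligand such as Jagged-1 on a neighbouring cell pulls on them. The freed intracellular part enters the nucleus, joins the DNA-binding protein RBPJ and a Mastermind coactivator, and turns on genes of the HES and HEY families together with the feedback inhibitor gene *NRARP*. In B cells the pathway is known for guiding marginal zone fate, and activating changes in *NOTCH1* recur in chronic lymphocytic leukemia.

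Total gene counts were 31762649 to 37744991 per library in MEC1 and 8809179 to 11231330 in JVM2, so low genes were measured less precisely in JVM2. *UGT2B17* itself, the gene that was manipulated, averaged 11.0 ± 0.691 CPM (counts per 1000000 counts of the library, SD, n = 3) in MEC1-CTRL. In MEC1-2B17 it averaged 21.1 ± 1.37 CPM, which is 0.94 higher on the log2 scale (SE 0.069, edgeR quasi-likelihood test, adjusted P = 2.0e-09). In JVM2 it went from 27.8 ± 1.83 to 38.7 ± 5.67 CPM, a log2 fold change of 0.48 (SE 0.11, edgeR adjusted P = 0.0048). One JVM2-2B17 library, replicate 2, stood apart. In it 2.41% of 8274 well-measured genes were over 1.5-fold from the mean of the other replicates, against at most 0.326% in each of the other JVM2 libraries. All 7 B-cell markers were detected in both lines, with a summed level of 2445 to 2506 CPM in MEC1-CTRL, 2294 to 2369 CPM in MEC1-2B17, 1363 to 1380 CPM in JVM2-CTRL and 1355 to 1597 CPM in JVM2-2B17.

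RBPJ is known to bind the sequence TGGGAA, most strongly as GTGGGAA, so the promoters of the ligand gene and of the HES targets are shown to let their levels be read against the bases upstream. The stretches run from 120 to 21 bases before the RefSeq transcription start (GRCh38.p14), at chr20:10674020-10674119 on the minus strand for *JAG1*, chr3:194136028-194136127 on the plus strand for *HES1* and chr1:1000118-1000217 on the minus strand for *HES4*. Capitals mark GTGGGAA and TGGGAA.
JAG1: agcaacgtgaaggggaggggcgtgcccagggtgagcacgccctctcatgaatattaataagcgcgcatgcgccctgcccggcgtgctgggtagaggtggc
HES1: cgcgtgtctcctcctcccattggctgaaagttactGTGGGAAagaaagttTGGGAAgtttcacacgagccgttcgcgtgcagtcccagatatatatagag
HES4: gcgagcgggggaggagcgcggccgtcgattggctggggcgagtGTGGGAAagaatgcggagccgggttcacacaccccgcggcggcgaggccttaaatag

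Of the 8 genes with a RefSeq promoter entry (12 promoters), *HES1*, *HES4* and *RBPJ* held GTGGGAA in the 250 bases before a start, read on both strands. That sequence, or TTCCCAC on the other strand, occurred in 5.43% of all 35116 promoters, and the shorter TGGGAA, which lies within it, in 20.8%. In *HES1* the match began 85 bases before the start with a further TGGGAA at 70, in *HES4* it began at 77, and in 1 of 5 *RBPJ* promoters matches began at 115 and 73. No match was found in the windows of *JAG1*, *NOTCH1*, *NOTCH2*, *NRARP* or *MAML2*. A match describes letters only.

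*JAG1*, which encodes the membrane ligand Jagged-1, was more abundant in 2B17 cells of both lines. It lies on chromosome 20 (ENSG00000101384, hg38, 10637684 to 10673999, minus strand). In MEC1-CTRL it measured 20.6, 20.6 and 20.1 CPM in replicates 1 to 3, and in MEC1-2B17 72.7, 67.0 and 70.2 CPM. The arms were far apart and the replicates within each were close, with means of 20.4 ± 0.274 and 70.0 ± 2.87 CPM (SD, n = 3). The log2 fold change was 1.78 (SE 0.048), or 3.42-fold. This was the value around which the genes were chosen. In bulk RNA, a change in the number of cells with the transcript and a change in RNA per cell cannot be told apart.

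In JVM2, whose table was scaled on its own, the level of *JAG1* was lower. The libraries held 27, 44 and 27 counts in JVM2-CTRL and 58, 48 and 62 in JVM2-2B17, or 2.69, 4.10 and 2.87 CPM against 5.26, 5.40 and 7.01 CPM. Every JVM2-2B17 library lay above every JVM2-CTRL library. The mean rose from 3.22 ± 0.771 CPM to 5.89 ± 0.975 CPM (SD, n = 3). This was a 1.80-fold rise of *JAG1*, or 0.85 on the log2 scale (SE 0.21), with an edgeR adjusted P of 0.0085. Leaving out each library in turn gave log2 fold changes of 0.72 to 1.07 with edgeR adjusted P from 0.0019 to 0.044. The MEC1 difference exceeded the JVM2 difference by 0.93 on the log2 scale (SE 0.19), a description because the MEC1 value was used for the choice.

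Genes used as markers of other cell types that can carry *JAG1* were also summed, although MEC1 and JVM2 are cultured B-cell lines. Whether these transcripts came from the B cells themselves was not tested. The endothelial and stromal sums and the myeloid sums were higher in the 2B17 arms. Of 6 endothelial and stromal markers, 3 were in the tables (*PECAM1*, *COL1A1* and *PDGFRB*), and *VWF*, *KDR* and *COL1A2* were in neither. Their summed level was 3.61 to 4.01 CPM in MEC1-CTRL and 4.15 to 5.27 in MEC1-2B17, and 21.5 to 25.8 CPM in JVM2-CTRL against 28.9 to 35.8 in JVM2-2B17. For myeloid markers, of which 4 of 4 were in the MEC1 table and 3 of 4 in the JVM2 table (*CD14* was not), the sums were 2.32 to 2.76 and 4.65 to 5.24 CPM in the MEC1 arms and 5.41 to 6.58 and 11.1 to 13.8 CPM in the JVM2 arms. The summed B-cell markers were lower in every MEC1-2B17 library than in the MEC1 controls and overlapped between the JVM2 arms. The part of these markers in the *JAG1* result was not tested. T-cell markers summed to at most 0.523 CPM in MEC1, with *CD3D* and *CD5* not in the table, and none of the 5 was in the JVM2 table.

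**Figure D1:**
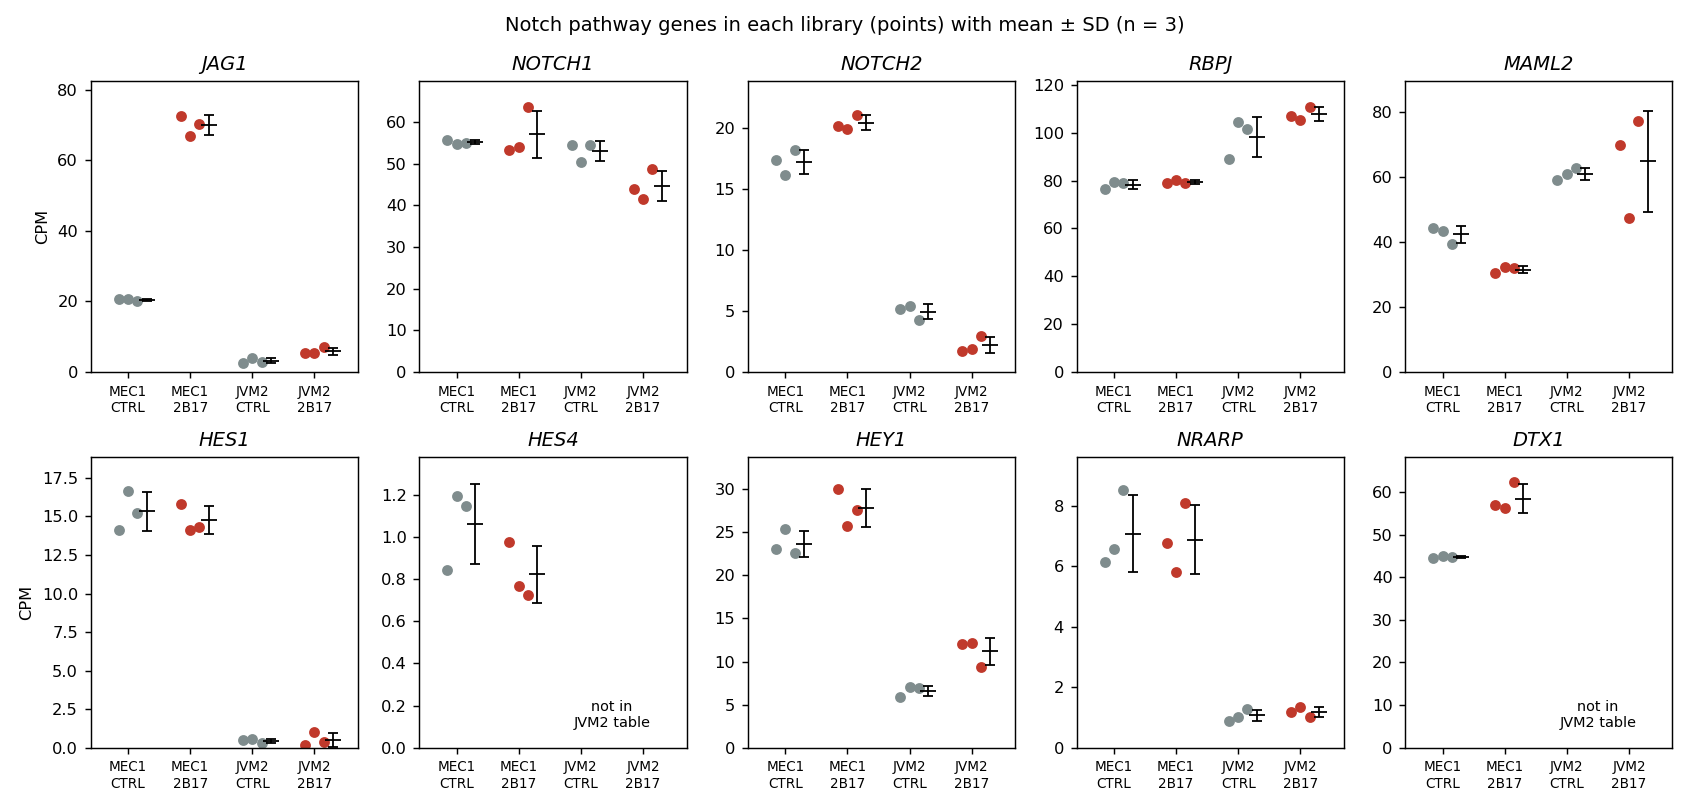
Level of each of the 10 Notch genes in CPM (linear axis from 0, 1 scale per panel) in every library of both arms of MEC1 and of JVM2. Points are libraries, and the bar beside them is the mean with its SD (n = 3). *JAG1* sits between 67.0 and 72.7 CPM in MEC1-2B17 against 20.1 to 20.6 in MEC1-CTRL, and *HES4* and *DTX1* were not in the JVM2 table.

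By the edgeR test, 4 of the 7 Notch genes tested in JVM2 passed an adjusted P of 0.05, against 29.3% of all 13021 genes tested. *JAG1* and *HEY1* rose (14.1% of all genes rose) and *NOTCH1* and *NOTCH2* fell (15.3% fell), while *RBPJ*, *MAML2* and *NRARP* did not pass. Without JVM2-2B17 replicate 2, the library that stood apart, 5 passed, *MAML2* being the one added. *HES1* was in the table but under the filter on low counts. The median log2 fold change of the 7 genes was 0.13, against 0.00 for all genes tested (0.0001192). In MEC1 the choice of genes used the contrast, so the 5 of 10 genes past the same threshold, 4 upward and 1 downward (*MAML2*), describe that choice and nothing is read from them. They stand beside 41.7% of all 16581 genes tested, 21.6% downward. Libraries of the arms did not overlap for 5 of the 10 genes in MEC1, beside 50.1% of all genes, and for 5 of 7 in JVM2, beside 45.2%.

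**Figure D2:**
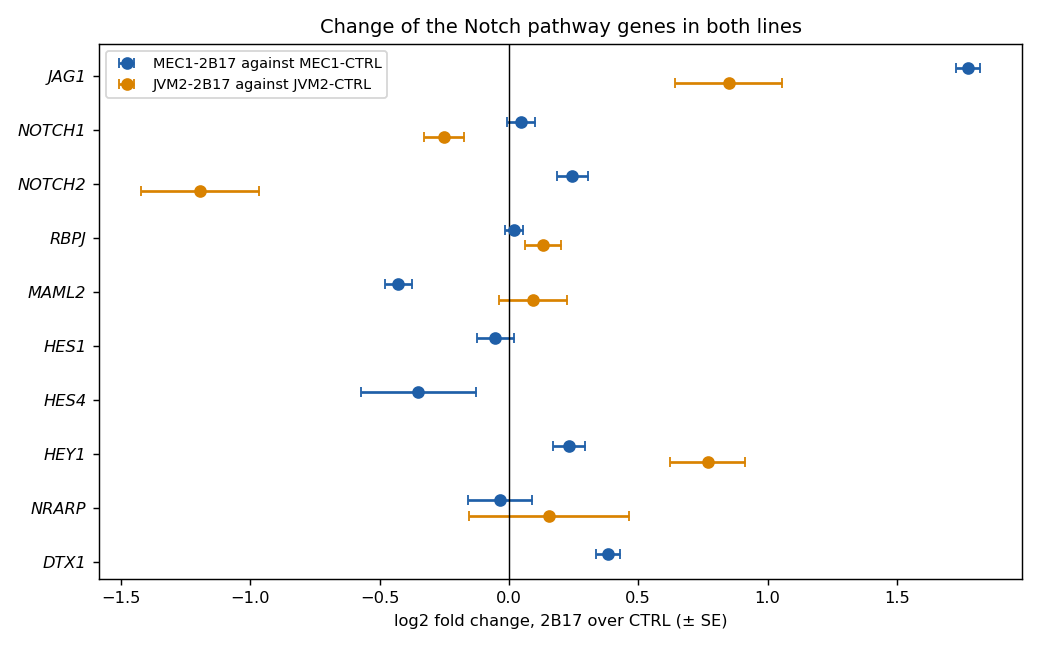
Log2 fold change of 2B17 over CTRL cells for each Notch gene (horizontal axis), with its SE, in MEC1 (blue) and JVM2 (orange). *JAG1* is at 1.78 and 0.85 and *NOTCH2* lies at 0.25 in MEC1 and at -1.19 in JVM2. *HES1*, *HES4* and *DTX1* have no JVM2 point.

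Of the receptors, *NOTCH1* was at a similar level in the control cells of the lines, each scaled within its own table. The gene (ENSG00000148400) lies on the long arm of chromosome 9 at 136494433 to 136546048 on the minus strand. It measured 55.7, 54.8 and 54.9 CPM in MEC1-CTRL and 53.4, 54.1 and 63.5 CPM in MEC1-2B17. Replicates 1 and 2 of MEC1-2B17 were just under all the controls and replicate 3 was above them, so the arms overlapped, at 55.1 ± 0.485 and 57.0 ± 5.67 CPM (SD, n = 3). The log2 fold change was 0.05 (SE 0.055), and between -0.03 and 0.10 with 1 library left out.

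In JVM2, *NOTCH1* measured 54.4, 50.3 and 54.5 CPM in the controls and 43.9, 41.4 and 48.6 CPM in 2B17 cells. All 3 JVM2-2B17 libraries were below the controls. *NOTCH1* fell by 0.25 on the log2 scale (SE 0.077, edgeR adjusted P = 0.029), from 53.1 ± 2.42 to 44.7 ± 3.67 CPM. That call was lost with DESeq2 (adjusted P = 0.073) and when JVM2-CTRL replicate 1, JVM2-CTRL replicate 3 or JVM2-2B17 replicate 1 was left out (edgeR adjusted P = 0.098, 0.12 and 0.086). The 2 lines' differences lay 0.30 apart (SE 0.10).

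*NOTCH2*, the receptor used by marginal zone B cells, differed in opposite directions in the lines. It lies on chromosome 1 (ENSG00000134250, 119911553 to 120100779, minus strand). MEC1-CTRL libraries held 17.3, 16.1 and 18.1 CPM and MEC1-2B17 libraries 20.2, 19.9 and 21.1 CPM, with no overlap and a log2 fold change of 0.25 (SE 0.060). JVM2-CTRL libraries held 52, 58 and 40 counts (5.18, 5.41 and 4.25 CPM) and JVM2-2B17 libraries 19, 17 and 26 counts (1.72, 1.91 and 2.94 CPM). Every JVM2-2B17 library was below every control, and *NOTCH2* fell by 1.19 on the log2 scale (SE 0.23, edgeR adjusted P = 0.0018), from 4.95 ± 0.617 to 2.19 ± 0.656 CPM. Leaving out single libraries gave -1.45 to -1.03. The difference between the lines was 1.45 (SE 0.22).

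Part of *NOTCH2* has near-identical copies in the *NOTCH2NL* genes, so reads could have been split between them and the *NOTCH2* counts are uncertain to that extent. *NOTCH2NL* (ENSG00000264343) had 148 to 182 counts in MEC1-CTRL and 187 to 225 in MEC1-2B17, with a log2 fold change of 0.42 (SE 0.11, edgeR adjusted P = 0.0056), and 4 to 7 against 3 to 6 counts in JVM2, below the filter. The MEC1 value of *NOTCH2* was also close to that of the genes around it. Within 2 Mb on each side, 17 other genes were tested, with a median log2 fold change of 0.24 in MEC1, 8 of them higher and 1 lower, and -0.15 in JVM2, with 1 higher and 6 lower.

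In the nucleus, *RBPJ*, the DNA-binding partner on which the cleaved receptors act, was at nearly the same level in both MEC1 arms. On chromosome 4 (ENSG00000168214, 26163455 to 26435131, plus strand), it measured 76.4, 79.6 and 79.1 CPM in MEC1-CTRL and 79.0, 80.4 and 78.9 CPM in MEC1-2B17. The arms overlapped, and the log2 fold change was 0.02 (SE 0.036). In JVM2 the controls had 88.9, 104 and 101 CPM and the 2B17 cells 107, 105 and 111 CPM. The 2B17 libraries lay just above, but the log2 fold change of 0.13 (SE 0.069) did not pass the test (edgeR adjusted P = 0.17). The annotation (GENCODE v44) lists 4 processed pseudogenes named after *RBPJ*, none of them in either count table, and their share of its reads was not tested.

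*MAML2*, a Mastermind coactivator on chromosome 11 (ENSG00000184384, 95976598 to 96343195, minus strand), had the lowest MEC1 log2 fold change of the 10 genes. It measured 44.2, 43.4 and 39.5 CPM in MEC1-CTRL and 30.3, 32.3 and 32.0 CPM in MEC1-2B17. The arms did not overlap, and the log2 fold change was -0.43 (SE 0.052). JVM2-CTRL libraries had 59.2, 61.0 and 62.7 CPM, and JVM2-2B17 libraries 70.0, 47.5 and 77.3 CPM. Replicates 1 and 3 of JVM2-2B17 were above all the controls and replicate 2, the library that stood apart, was below them. With all libraries the JVM2 log2 fold change was 0.09 (SE 0.13, edgeR adjusted P = 0.64), and without JVM2-2B17 replicate 2 it was 0.27 (edgeR adjusted P = 8.3e-04). The lines' differences lay 0.52 apart, lower in MEC1 (-0.52, SE 0.14).

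Among the target genes, *HES1*, a transcriptional repressor and the classical Notch target, was not higher beside the higher *JAG1* in MEC1. The gene, whose promoter with 2 matches is printed above, lies on chromosome 3 (ENSG00000114315, 194136148 to 194138732, plus strand). It measured 14.1, 16.6 and 15.2 CPM in MEC1-CTRL and 15.8, 14.2 and 14.3 CPM in MEC1-2B17, with overlapping arms and a log2 fold change of -0.05 (SE 0.072). In JVM2 it had only 5, 6 and 3 counts in the controls and 2, 9 and 3 counts in 2B17 cells, and a difference was not detectable at this depth (exact two-sided permutation test on CPM, P = 0.9, smallest possible 0.1).

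*HES4*, a relative of *HES1* on chromosome 1 (ENSG00000188290, 998962 to 1000172, minus strand), was at a low level. Its MEC1 libraries held 0.842, 1.19 and 1.14 CPM in the controls and 0.977, 0.766 and 0.725 CPM in 2B17 cells. The arms overlapped, and the log2 fold change was -0.35 (SE 0.22).

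*HEY1*, which encodes another repressor induced by Notch, rose in JVM2. The gene (ENSG00000164683, chromosome 8) measured 5.88, 7.0 and 6.90 CPM in JVM2-CTRL and 12.1, 12.2 and 9.39 CPM in JVM2-2B17. The arms did not overlap. The means were 6.59 ± 0.619 and 11.2 ± 1.57 CPM (SD, n = 3), a 1.70-fold rise, or 0.77 on the log2 scale (SE 0.14), with an edgeR adjusted P of 0.0016, and 0.69 to 0.88 with 1 library left out. In MEC1 it was 23.0, 25.3 and 22.6 CPM in the controls and 30.1, 25.7 and 27.6 CPM in 2B17 cells. There too every 2B17 library was above every control, by a log2 fold change of 0.23 (SE 0.063). The gap of *HEY1* between the lines was -0.53 (SE 0.16, MEC1 minus JVM2), a description because the MEC1 contrast was used for the choice. The difference of *HEY1* was larger in JVM2 and that of *JAG1* larger in MEC1, and a link between the genes was not tested.

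*NRARP*, a feedback inhibitor of Notch on the long arm of chromosome 9 (ENSG00000198435, 137299631 to 137302271, minus strand), overlapped between the arms in both lines. It measured 6.13, 6.57 and 8.52 CPM in MEC1-CTRL and 6.75, 5.82 and 8.07 CPM in MEC1-2B17. The highest value was in a control and the lowest in a 2B17 library, with a log2 fold change of -0.03 (SE 0.13). In JVM2 it had 9, 11 and 12 counts in the controls and 13, 12 and 9 in 2B17 cells, a log2 fold change of 0.15 (SE 0.31, edgeR adjusted P = 0.77). These counts are too few to show a difference of that size.

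*DTX1*, the Deltex gene for a ubiquitin ligase that modulates Notch in lymphocytes, was in the MEC1 table alone. On chromosome 12 (ENSG00000135144, 113056730 to 113098028, plus strand), it measured 44.4, 45.1 and 44.8 CPM in MEC1-CTRL and 56.9, 56.1 and 62.3 CPM in MEC1-2B17. Every 2B17 library was above the controls, and the log2 fold change was 0.38 (SE 0.046). The JVM2 table held only genes with at least 10 counts over its 6 libraries, so *DTX1* and *HES4* presumably fell below that there. The other Deltex genes are described with the wider pathway.

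Levels can be set against each other only roughly between genes as CPM per kb of exon. The length used merges the exons of all annotated transcripts of a gene. A gene with annotated exons that these cells do not use therefore reads too low, and the order is approximate. In MEC1-CTRL the order ran from *DTX1* at 10.3 CPM per kb through *HES1* at 7.45, *MAML2* at 5.95, *RBPJ* at 5.12, *NOTCH1* at 4.40 and *HEY1* at 4.31 to *NRARP* at 2.68, *JAG1* at 2.20, *NOTCH2* at 1.03 and *HES4* at 0.947. The neighbours *NOTCH1* and *HEY1*, *NRARP* and *JAG1*, and *NOTCH2* and *HES4* were within their SDs of each other. In MEC1-2B17, *JAG1* stood second at 7.53 CPM per kb, behind *DTX1* at 13.4 and within the SDs of *HES1* at 7.16. In JVM2 the order was different at the top, and *DTX1* and *HES4*, not in its table, have no place in it. *MAML2* led at 8.56 CPM per kb in JVM2-CTRL, followed by *RBPJ* at 6.42, *NOTCH1* at 4.24 and *HEY1* at 1.20, with *NRARP* at 0.403, *JAG1* at 0.346, *NOTCH2* at 0.295 and *HES1* at 0.223 next, each within the SDs of its neighbour. In JVM2-2B17, *JAG1* at 0.634 CPM per kb stood above *NRARP* at 0.448, and *HES1* at 0.248 and *NOTCH2* at 0.131 came last, within their SDs of each other.

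*NOTCH1* and *NRARP* lie in a chromosome arm whose RNA was lower as a whole in MEC1-2B17 cells. This was already known when the genes were chosen, so the MEC1 values of the arm are a description. On the long arm of chromosome 9, taken as genes starting beyond 60 Mb, 471 genes were tested in MEC1 and their median log2 fold change was -0.39 (quartiles -0.57 and -0.20), with 337 lower and 14 higher past the threshold. The median of the other 16110 genes was 0.01 (0.00931). *NOTCH1*, at 0.05, was above most of its arm, with only 38 of the 471 genes (8.07%) higher, and *NRARP*, at -0.03, had 56 (11.9%) above it. In JVM2 the arm did not stand out, with a median of 0.00 (0.00488) over 360 genes, 43 higher and 38 lower, and *NOTCH1* was in its lower part with 317 genes (88.1%) above it.

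The genes closer to *NOTCH1* are part of the same arm, and their MEC1 values are likewise a description. Of 72 other genes tested within 2 Mb in MEC1, 48 were lower and 1 higher, the median log2 fold change was -0.40, and 5 lay above *NOTCH1* and 10 above *NRARP*. The tested neighbours of *NOTCH1* on one side, *SEC16A* and *C9orf163*, were at -0.23 (SE 0.036) and -0.51 (SE 0.32) in MEC1. On the other side *MIR4674HG* and *AGPAT2* were at 0.03 (SE 0.25) and -0.13 (SE 0.078). In JVM2 the 56 genes tested within 2 Mb had a median of 0.04, and *SEC16A* fell with *NOTCH1*, by 0.39 on the log2 scale (edgeR adjusted P = 0.011).

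*JAG1* stands in a gene-poor stretch of chromosome 20. Within 2 Mb, 4 other genes were tested in both lines. In MEC1 their median log2 fold change was 0.39, with 3 higher and none above *JAG1*, and in JVM2 it was -0.02, with 1 lower. Because *JAG1* was chosen for its high MEC1 value, its place above these genes in MEC1 is a description only. The nearest tested gene, *SLX4IP*, was at 0.32 in MEC1 (edgeR adjusted P = 4.1e-05) and -0.05 in JVM2 (adjusted P = 0.69), and the next, *MKKS*, at -0.05 and 0.20 (adjusted P = 0.48 and 0.11). On the same side and also within 2 Mb, *SNAP25* and *ANKEF1* were at 0.47 and 0.68 in MEC1, named here after their values were seen. On the other side *TASP1* and *ESF1* started 2.75 and 3.08 Mb away, outside that window. They were at 0.07 and 0.10 in MEC1 (edgeR adjusted P = 0.39 and 0.18), and *ESF1* fell by 0.23 on the log2 scale in JVM2 (adjusted P = 0.034). Over 10 Mb on each side the median was 0.03 for the 88 genes around *JAG1* and -0.37 for the 203 around *NOTCH1* in MEC1.

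**Figure D3:**
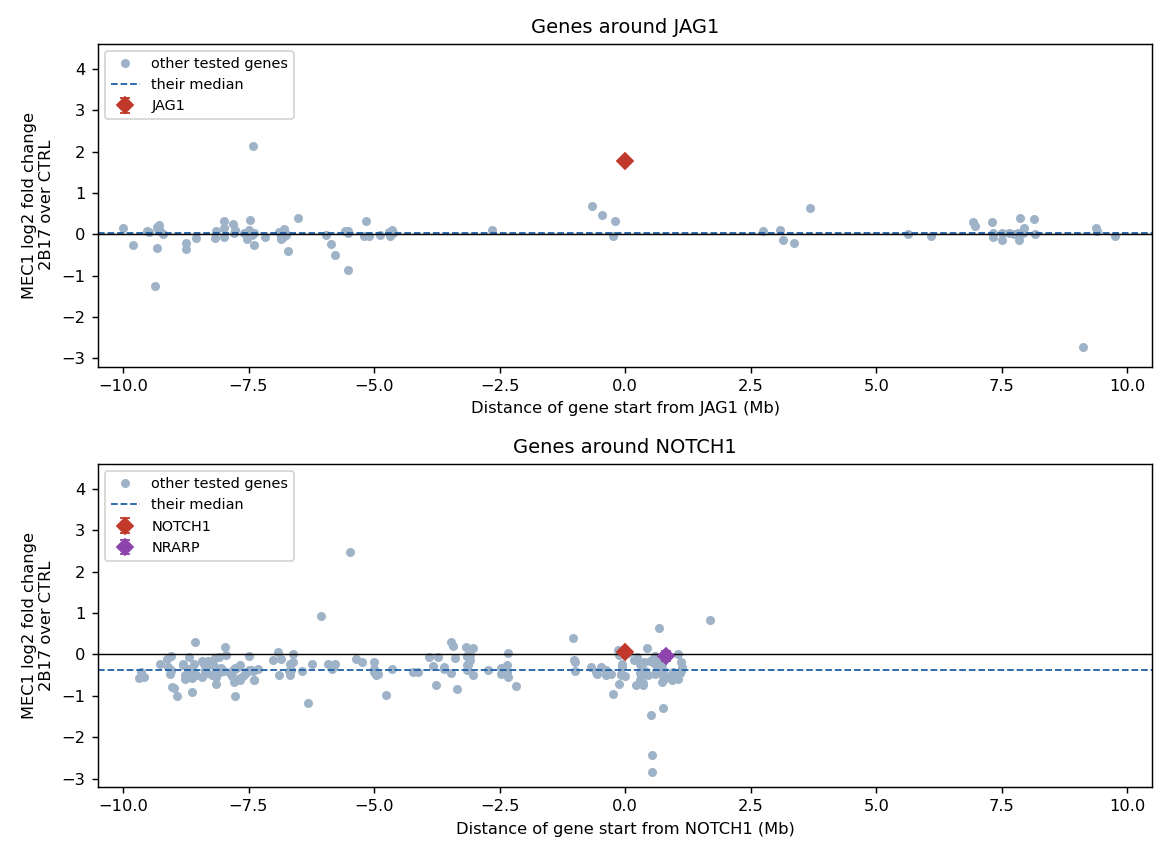
MEC1 log2 fold change of 2B17 over CTRL for every tested gene within 10 Mb of *JAG1* (upper panel) and *NOTCH1* (lower panel), against the distance of its start in Mb. Grey points are other genes, the dashed line their median (0.03 and -0.37), and diamonds with SE the Notch genes. *JAG1*, chosen for its high MEC1 value, is at 1.78, above its 4 neighbours within 2 Mb. *NOTCH1* at 0.05 and *NRARP* at -0.03 lie above most of theirs.

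A wider list of 64 further pathway genes, covering ligands, receptors, cleavage, glycosylation, trafficking, nuclear cofactors and target genes, was read in both lines. In MEC1, 52 were tested, 12 rose, 11 fell and 29 did not pass, so that 44.2% were called beside 41.7% of all genes, with a median log2 fold change of 0.05. In JVM2, 46 were tested, 4 rose, 11 fell and 31 did not pass, so that 32.6% were called beside 29.3%, with a median of -0.07. Both shares were near those of all genes. The JVM2 count was lower with a control library left out, at 10, 6 and 7 without JVM2-CTRL replicates 1, 2 and 3. The count over all genes went down with it, from 3821 to 2932, 2765 and 2687. Without JVM2-2B17 replicates 1, 2 and 3 the wider count was 11, 22 and 15.

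The counts by role stand beside all genes tested, of which 3324 of 16581 rose and 21.6% fell in MEC1 and 14.1% rose and 15.3% fell in JVM2. By role, 4 of 6 tested target genes rose in MEC1 and 1 fell, against 1 and 1 of 5 in JVM2. Receptor glycosylation had 3 of 6 genes higher in MEC1 and 1 of 5 lower in JVM2, and receptor cleavage had 3 of 9 higher in MEC1 and 1 of 9 lower in JVM2. Genes of receptor trafficking and turnover fell in 4 of 8 cases in MEC1, with none rising, and in JVM2 2 fell and 1 rose. Of the nuclear coactivators 2 of 6 fell in each line, and of the corepressors 3 of 11 fell and 1 rose in MEC1 and 3 of 9 fell and 1 rose in JVM2. Among the ligands tested besides *JAG1*, 1 of 3 in MEC1 and the 1 tested in JVM2 rose. *NOTCH4* fell by 0.37 on the log2 scale in MEC1 (edgeR adjusted P = 0.0041), the 1 receptor of the list that was tested, and was at 0.41 in JVM2 (adjusted P = 0.074). Of the ligand endocytosis genes, neither of the 2 tested in MEC1 passed and 1 of 2 in JVM2 fell.

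**Figure D4:**
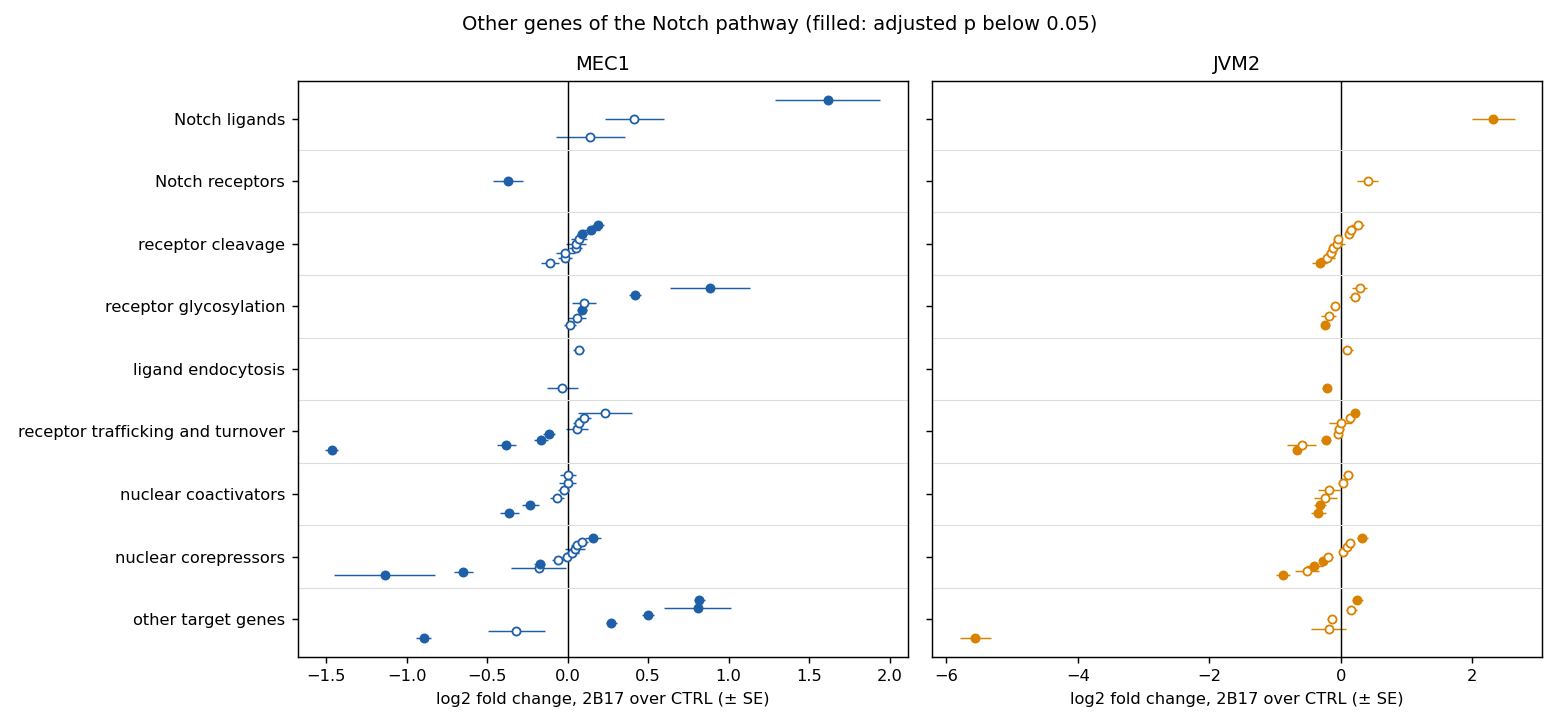
Log2 fold change of 2B17 over CTRL with its SE for the wider pathway genes, grouped by role, in MEC1 (left) and JVM2 (right). Filled points pass an edgeR adjusted P of 0.05, and the horizontal axes of the panels differ in range. In MEC1 23 of 52 points are filled and in JVM2 15 of 46, on both sides of 0, with *CR2* in JVM2 far to the left at -5.56.

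*CR2*, listed among the targets and encoding the complement receptor CD21, changed in opposite directions. In MEC1 it rose by 0.82 on the log2 scale, from 494 ± 16.0 CPM to 872 ± 37.2 CPM (SD, n = 3, SE of the log2 fold change 0.036, edgeR adjusted P = 1.9e-12). In JVM2 it had 161, 148 and 153 counts in the controls and 3, 4 and 2 counts in 2B17 cells, so it was nearly lost from JVM2-2B17. The level was 48.9-fold lower (exact binomial 95% interval 25.5 to 108 on the summed counts, for counting error only), with an edgeR adjusted P of 5.5e-09, and the difference between the lines was 6.41 on the log2 scale (edgeR adjusted P = 1.6e-15).

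Other target genes of the list also moved in MEC1. *CDKN1A*, the cell-cycle inhibitor gene, fell by 0.90 on the log2 scale in MEC1, from 71.4 to 38.4 CPM (edgeR adjusted P = 2.5e-11), and was at -0.14 in JVM2 (adjusted P = 0.11). *HEY2*, the relative of *HEY1*, rose by 0.81 in MEC1 from 0.900 to 1.58 CPM (edgeR adjusted P = 0.0040) and was not in the JVM2 table. *MYC* and *FCER2*, picked out here after their values were seen, rose in MEC1 by 0.50 and 0.27 (edgeR adjusted P = 2.0e-09 and 5.0e-06), and *FCER2*, which encodes CD23, also rose by 0.25 in JVM2 (adjusted P = 0.041). Of *FCER2*'s RefSeq promoters, 1 held GTGGGAA at 187 bases before the start, and *CR2*'s held none.

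Of the Deltex genes, the family of *DTX1*, 4 others were tested in both lines. *DTX3L*, which encodes a ubiquitin ligase, measured 106, 99.7 and 101 CPM in MEC1-CTRL and 36.1, 37.2 and 37.8 CPM in MEC1-2B17, so that it fell by 1.46 on the log2 scale (SE 0.041, edgeR adjusted P = 3.3e-15). In JVM2 it fell by 0.67 (edgeR adjusted P = 2.5e-06), from 194, 199 and 206 CPM to 127, 123 and 127 CPM, and the lines differed by -0.79 (adjusted P = 2.0e-08). *DTX4* fell by 0.17 on the log2 scale in MEC1 and rose by 0.21 in JVM2, with a difference of -0.37. *DTX3* and *DTX2* are given to complete the family, after their values were seen. *DTX3* fell by 0.38 in MEC1 (edgeR adjusted P = 3.4e-05) and was at 0.14 in JVM2 (adjusted P = 0.11), with a difference of -0.52 (adjusted P = 1.3e-04), and *DTX2* was at 0.06 in MEC1 and 0.00 (0.000664) in JVM2 (adjusted P = 0.55 and 0.999). *POFUT1*, which adds the O-fucose that receptors need, went the opposite way, at 0.09 in MEC1 and -0.23 in JVM2, with a difference of 0.33. The *POFUT1* and *DTX4* calls were lost under some alternatives.

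Of the corepressor genes of the Groucho family, whose products HES and HEY proteins recruit to silence genes, *TLE3* and *TLE4* were tested in both lines. *TLE4*, on the long arm of chromosome 9, fell in MEC1 from 31.1 to 19.8 CPM, by 0.65 on the log2 scale (edgeR adjusted P = 3.0e-08), and was at 0.10 in JVM2 (adjusted P = 0.42). *TLE3* was at 0.03 in MEC1 and fell by 0.89 in JVM2 (SE 0.11, edgeR adjusted P = 5.3e-05), from 77.4, 74.8 and 77.4 CPM to 47.8, 32.8 and 43.2 CPM. *TLE1* and *TLE2*, which were not in the JVM2 table and fall outside the rule for named genes, were at -1.14 (edgeR adjusted P = 0.0068) and -0.18 (adjusted P = 0.44) in MEC1. The *TLE1* value rests on few counts, 17 to 26 a library in MEC1-CTRL and 8 to 9 in MEC1-2B17. Of the other ligands, *DLK2*, a non-canonical one, had 9, 8 and 4 counts in JVM2-CTRL and 35, 25 and 41 in JVM2-2B17, a rise of 2.32 (SE 0.33, edgeR adjusted P = 1.9e-04), and was not in the MEC1 table. *DLL4*, named after its values were seen, rose by 1.62 in MEC1 (SE 0.33, edgeR adjusted P = 5.4e-04) from 5 to 13 counts to 20 to 28 counts a library.

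Across the lines, 8 of the 45 wider genes tested in both were called in both, 5 in the same direction (*FBXW7*, *DTX3L*, *MAML1*, *CIR1* and *FCER2*) and 3 in opposite directions (*POFUT1*, *DTX4* and *CR2*). Of all 12243 genes tested in both lines, 1935 (15.8%) were called in both, 1025 in the same direction and 910 in opposite directions. The test of the difference between the lines was passed by 20 of 50, beside 32.0% of all 15130 genes tested.

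The genes whose levels followed *JAG1* most closely over the 12 libraries, with each line centred on its own mean, were *KDM4C* (Pearson r = 0.984), *ISCU* (0.974), *HDGFRP3* (0.968), *SYNE2* (0.967) and *TMEM192* (0.967), out of 10946 compared. None is on the pathway lists. The libraries share the contrast of arms within each line, so these values describe the same contrast and carry no test. Of the Notch genes compared, *HEY1* was nearest at 0.60, at rank 1492, followed by *RBPJ* at 0.47, *NOTCH2* at -0.15, *NOTCH1* at -0.19 and *MAML2* at -0.51.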

How the data were processed

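RNA from 12 libraries of 2 cell lines, 3 biological replicates per population, was sequenced as paired ends at 2 sites after removal of ribosomal RNA. Which site sequenced which library is not given in the sources used here. For each line the authors deposited raw read counts per Ensembl gene on hg38. The submitters' processing notes name TopHat2 2.0.14, Trimmomatic, HTSeq, edgeR and DESeq2. Each table held only genes with at least 10 counts over its 6 libraries (22441 genes in MEC1, 17144 in JVM2). The 12 columns of normalized per-sample values and the authors' own fold changes, log2 CPM and P-values were not used. Strand use in counting is not given in the sources used here, so reads of overlapping antisense genes were not separable.

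Groups came from the sample labels. Genes were filtered with filterByExpr (minimum count 10), scaled by TMM and tested in each line with edgeR 4.0.16 in R 4.3.3 by the quasi-likelihood F-test, 2B17 against CTRL, with Benjamini-Hochberg adjustment over all genes tested and a threshold of 0.05. CPM are counts scaled to 1000000 per library of TMM-adjusted size, and an SE is the log2 fold change divided by the square root of F. The difference between lines was the interaction in a fit of all 12 libraries. With 3 libraries against 3, an exact permutation test cannot give a P under 0.1. In simulated data with 200 genes changed by a log2 fold of 1, the test called 192 in MEC1 (16343 genes), 193 in JVM2 (12837 genes) and 179 for the difference (14922 genes), and 10, 7 and 8 unchanged genes. The changed genes were drawn from well-counted ones, and all genes were given the same spread between replicates. These counts therefore do not carry over to low genes, smaller changes or a library that stands apart.

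The 10 Notch genes and the pathway lists were chosen with earlier results of these data known. From the wider list, genes were named if they passed the threshold with a fold of at least 1.5 and an average log2 CPM of at least 0, or if they were called in opposite directions in the lines with the difference also called. *UGT2B17*, the 5 genes most like *JAG1* and the 2 tested genes on each side of *JAG1* and *NOTCH1* were named too. Positions and exon lengths came from GENCODE v44 and promoter bases from RefSeq. *DTX1* and *HEY1* have no promoter entry. Alternatives were DESeq2 1.42.0, library size without TMM, no filter, a strict filter, the replicate number as a block, and leaving out each library.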

Additional observations from a re-analysis of the deposited data

Results flagged for a closer look

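Some genes were picked out because their differences between 2B17 and CTRL cells were unlike in the 2 lines. For *NOTCH2* every MEC1-2B17 library was above the MEC1 controls and every JVM2-2B17 library was below the JVM2 controls, with a gap of 1.45 on the log2 scale (MEC1 minus JVM2), and this difference was not tested because the MEC1 contrast was used to choose the gene. For the wider pathway genes the gap passed the interaction test in edgeR. It was 6.41 for *CR2*, 0.91 for *TLE3* and 0.33 for *POFUT1*, each higher in MEC1. It was -0.79 for *DTX3L*, -0.75 for *CDKN1A*, -0.74 for *TLE4* and -0.37 for *DTX4*, each lower in MEC1.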

How the results depend on the processing

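The JVM2 rises of *JAG1* and *HEY1* and the fall of *NOTCH2* kept their direction and their call in every alternative run, whereas the JVM2 call of *NOTCH1* did not hold with DESeq2 or without 3 of the libraries. The number of Notch genes called in JVM2 was 3 with DESeq2, 4 in the other fits of all libraries and 3 to 5 with 1 library left out. For the wider list the JVM2 count of 15 ranged from 6 to 22 with 1 library left out (6 and 7 without JVM2-CTRL replicates 2 and 3, which leave fewer samples, and 22 without JVM2-2B17 replicate 2), and from 11 to 17 in the other fits. Over all genes, 5936 to 6606 were called in MEC1 and 2687 to 4541 in JVM2 with 1 library left out. The median log2 fold change of the long arm of chromosome 9 in MEC1 was -0.40 with library size only, against -0.39, and -0.40 to -0.38 with 1 library left out. Of 560 log2 fold changes of single genes recomputed under alternatives, 542 kept their side of the threshold, and 0 of the called ones changed sign.

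Same-numbered replicates of the arms were not treated as pairs in the main fits. Their deviations from the arm means correlated at -0.0422, -0.00675 and 0.0400 in MEC1 and 0.0857, 0.117 and -0.00594 in JVM2. Replicates with different numbers correlated at -0.0749 to 0.0853 in MEC1 and -0.117 to 0.0623 in JVM2. In JVM2, replicates 1 and 2 were thus above that range, and whether the arms were paired is not known. A fit with that number as a replicate block called 6897 genes in MEC1 and 4236 in JVM2, with 4 Notch genes among them in JVM2 and 23 and 17 wider genes in the lines, and for the difference between lines 5084 genes and 22 wider genes were called.

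In JVM2 *HES1* and *NRARP* had too few counts for small differences to be seen.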
